A study of Homo sapiens with 6 samples.

Results

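The genes described are 10 genes of the Hippo pathway and its transcriptional output: YAP1, WWTR1, TEAD1, LATS1, LATS2, CCN1, CCN2, ANKRD1, AMOTL2 and AJUBA. They were chosen by symbol as YAP and TAZ, a TEAD factor, the LATS kinases and direct targets, and make up 10 of the 20042 genes in the deposited count table. RNA sequencing was run on 6 cultures of MDA-MB-231, a human breast cancer cell line with wild-type genotype per the labels. A control siRNA (siCTRL) was given to 3 of the cultures and siRNA-1, a small interfering RNA against the transcript ERBBride, to the other 3. The labels call the cultures biological replicates without saying how they were separated, so p-values measure the spread between these samples.

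The Hippo pathway is a kinase cascade in which the MST kinases (STK3 and STK4), with SAV1, activate the LATS kinases and their MOB1 cofactors. Active LATS kinases phosphorylate the coactivators YAP and TAZ (the product of WWTR1), which are then held in the cytoplasm or degraded. Unphosphorylated YAP and TAZ enter the nucleus, bind TEAD factors and switch on genes such as CCN1, CCN2 and ANKRD1. Some targets, among them LATS2 and AMOTL2, encode inhibitors of YAP and so form negative feedback. MDA-MB-231 is known to carry an inactivating mutation of NF2, an upstream activator of the cascade, and is used as a line with active YAP and TAZ. RNA levels say nothing of the phosphorylation or the location of these proteins.

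Library totals lay between 12813706 and 15014434 counts, and levels are given as CPM (counts of a gene relative to the size of its library), with library sizes adjusted by TMM, the trimmed mean of M values. A value with ± is the mean and SD of the 3 libraries of a group. All 10 genes were tested, with between 3208 (LATS1) and 70017 (CCN1) counts over the 6 libraries. ERBBride was not analysed here, so its knockdown was not checked. The line's markers VIM, CD44, EGFR, CAV1 and MSN summed to 6208 to 6487 CPM in siCTRL and 3365 to 3482 CPM in siRNA-1, and all 5 fell. The 6 luminal markers summed to 27.8 to 32.1 CPM in siCTRL and 9.80 to 10.9 CPM in siRNA-1, with PGR at 0 counts, and the 3 tested (GATA3, EPCAM and CDH1) fell. Of 5 haematopoietic markers CD3E was at 0 and both tested fell, from a sum of 15.9 to 20.5 CPM to one of 7.61 to 8.88 CPM. Of 5 endothelial markers CDH5 was at 0 and both tested fell, from 15.7 to 17.8 CPM to 8.38 to 10.8 CPM. The part of these shifts in the results was not tested. The library siCTRL 2 stood apart from the other controls: its counts differed from theirs by a chi-square of 11.35 or 11.37 per gene, against 2.12 to 2.39 for every other pair of replicates.

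The promoters of CCN2 and ANKRD1 are shown because these genes had the largest falls of the 10. The sequences are the 250 bases before the transcription start in RefSeq (GRCh38.p14), read 5′ to 3′ on the gene's strand. Capitals mark the TEAD core letters GGAATG or, on the other strand, CATTCC, and the AP-1-like letters TGANTCA. N stands for any base, so this is a loose pattern, and it reads the same on both strands.
CCN2 at chr6:131951373-131951622, minus strand: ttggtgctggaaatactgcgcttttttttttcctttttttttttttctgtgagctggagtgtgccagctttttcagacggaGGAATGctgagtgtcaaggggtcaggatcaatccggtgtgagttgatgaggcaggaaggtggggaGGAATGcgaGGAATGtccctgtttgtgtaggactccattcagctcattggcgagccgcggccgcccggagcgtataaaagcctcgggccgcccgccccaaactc
ANKRD1 at chr10:90921088-90921337, minus strand: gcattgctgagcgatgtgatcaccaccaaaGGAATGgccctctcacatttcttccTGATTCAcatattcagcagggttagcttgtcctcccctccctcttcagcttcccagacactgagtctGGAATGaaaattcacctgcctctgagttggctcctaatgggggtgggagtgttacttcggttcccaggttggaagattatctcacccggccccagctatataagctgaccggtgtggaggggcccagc

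The CCN2 promoter held the TEAD letters 3 times, starting 169, 104 and 95 bases before the start. The ANKRD1 promoter held them 2 times, at 220 and 128 bases, and the AP-1-like letters, as TGATTCA, at 195 bases. Of the 10 genes 8 were matched in the promoter table (all but CCN1 and TEAD1). Of these 8, 3 held the TEAD letters, YAP1 being the other with a match at 162 bases. The RefSeq starts used can differ from the GENCODE gene spans given below. The windows of WWTR1 (149703274 to 149703523) and LATS1 (149716426 to 149716675) lay wholly inside those spans. Others, ANKRD1 among them, lay partly inside. Over the promoters of 15340 genes of the count table, 10.1% held the TEAD letters and 5.02% the AP-1-like letters with any middle base. A match is a run of letters and is no measure of binding, and genes matched here moved in both directions.

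Of the 10 genes, 4 rose in siRNA-1 cells (YAP1, TEAD1, LATS2 and AMOTL2), 5 fell (WWTR1, CCN1, CCN2, ANKRD1 and AJUBA) and LATS1 did not pass the test. Calls are adjusted p under 0.05 in edgeR's quasi-likelihood test. In bulk RNA, fewer cells with a transcript and less of it per cell cannot be told apart. Over the 12440 genes tested 62.5% were called, 31.5% higher and 31.0% lower, so 9 of 10 stands against a background in which most genes were called. Groups did not overlap at 9 of the 10 genes, against 67.6% of all genes tested. At least 2-fold changes were found for 3 of the 10, all falls, against 10.1% of all genes. By direction, 8.14% of all genes tested fell and 1.97% rose at least 2-fold, so changes of this size leaned to falls over all genes too. The median log2 fold change of the 10 genes was -0.15, and that of all genes tested was 0.01.

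**Figure D1:**
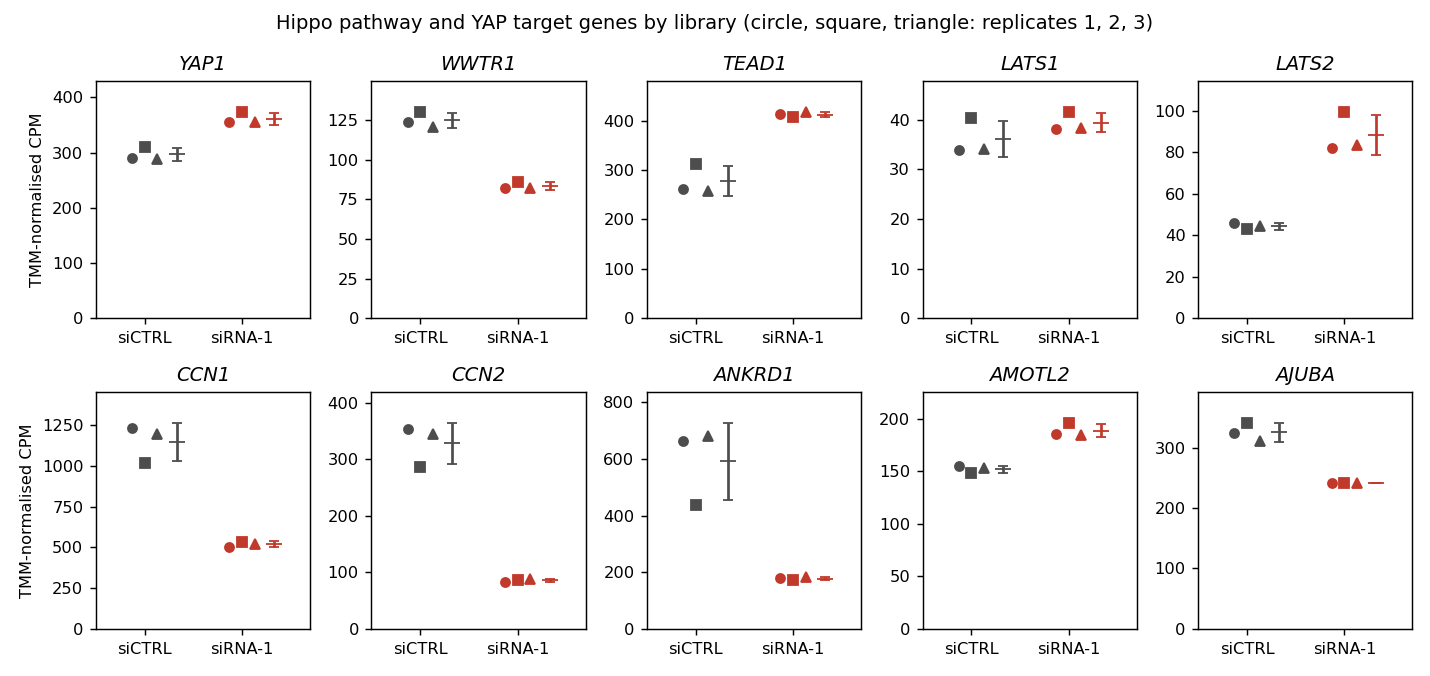
Level of each of the 10 genes in each library (vertical axis, TMM-normalised CPM, from 0), with siCTRL in grey and siRNA-1 in red; bars give mean ± SD (n = 3). The groups are apart at 9 genes and overlap at LATS1, and siCTRL 2 (grey square) is the lowest control at CCN1, CCN2 and ANKRD1.

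The paralogous coactivators moved in opposite directions. YAP1, which encodes YAP, stood at 291, 311 and 289 CPM in siCTRL replicates 1 to 3 and at 355, 374 and 356 CPM in siRNA-1 replicates 1 to 3. Every siRNA-1 library lay above every control. YAP1 rose 1.22-fold (log2 fold change 0.28, SE 0.053, adjusted p = 0.000564, edgeR). WWTR1, which encodes TAZ, stood at 124, 130 and 120 CPM in siCTRL and at 82.0, 86.1 and 82.0 CPM in siRNA-1. Here every siRNA-1 library lay below every control, and WWTR1 fell 1.50-fold (log2 fold change -0.58, SE 0.057, adjusted p = 3.59e-06, edgeR). Within a library, the ratio of YAP1 to WWTR1 per kilobase of exon was 3.14, 3.19 and 3.21 in siCTRL and 5.78, 5.80 and 5.80 in siRNA-1. The means were 3.18 ± 0.0373 and 5.79 ± 0.0122 (SD, n = 3 per group), a 1.82-fold shift. The ratio does not depend on the scaling of the libraries. An exact two-sided permutation test gave p = 0.1, the smallest that 3 against 3 allows. With the groups of both genes apart in opposite directions, this outcome was fixed in advance and adds no support.

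TEAD1, a DNA-binding partner of YAP and TAZ, stood at 262, 312 and 258 CPM in siCTRL and at 414, 407 and 417 CPM in siRNA-1. The siRNA-1 libraries lay close together and above all controls, of which siCTRL 2 was the highest. TEAD1 rose 1.49-fold (log2 fold change 0.57, SE 0.070, adjusted p = 2.16e-05, edgeR). All other TEAD genes rose too. TEAD2 rose 1.56-fold, from 21.7 ± 3.40 to 33.8 ± 1.13 CPM, TEAD3 rose 1.25-fold, from 64.4 ± 2.47 to 80.4 ± 1.26 CPM, and TEAD4 rose 1.29-fold, from 16.2 ± 1.04 to 20.9 ± 0.494 CPM (SD, n = 3 per group). The largest adjusted p among these 3 was 0.00384 (edgeR). VGLL genes encode cofactors that bind TEAD in competition with YAP and TAZ. VGLL4, which represses TEAD output, rose 1.45-fold (adjusted p = 8.65e-05, edgeR), and VGLL3 fell 1.64-fold, from 13.3 ± 0.587 to 8.14 ± 0.240 CPM. VGLL1 had 0 counts and VGLL2 had 2 counts over all libraries, so neither was tested. In the list of YAP, TAZ, TEAD and VGLL genes, 6 of 8 tested rose and 2 fell, where 31.5% of all genes rose and 31.0% fell, and the median log2 fold change was 0.34.

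**Figure D2:**
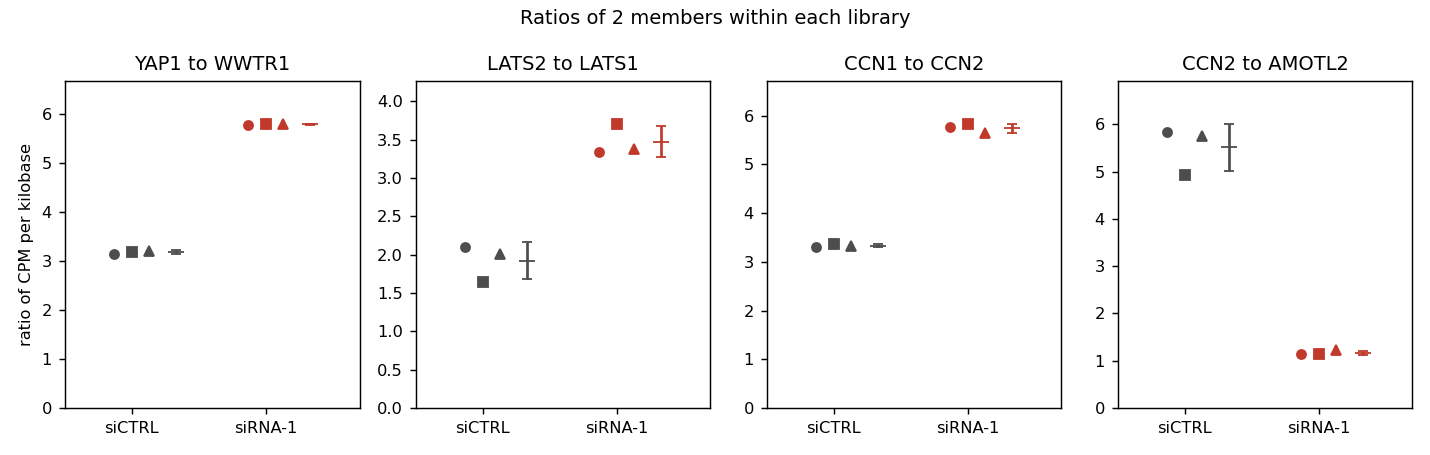
Ratio of 2 members within each library (vertical axis, ratio of CPM per kilobase of exon, from 0), with mean ± SD (n = 3); circles, squares and triangles are replicates 1, 2 and 3. Ratios of YAP1 to WWTR1, LATS2 to LATS1 and CCN1 to CCN2 were higher in siRNA-1 and that of CCN2 to AMOTL2 was lower, with no overlap in any of the 4.

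The LATS kinases differed from one another. LATS1 stood at 33.9, 40.2 and 34.1 CPM in siCTRL and at 38.1, 41.5 and 38.4 CPM in siRNA-1. The groups overlapped through siCTRL 2, and the log2 fold change was 0.13 (95% interval -0.06 to 0.31, adjusted p = 0.210, edgeR). Without siCTRL 2 it was 0.19 and passed (adjusted p = 0.0155, within a range of 0.0155 to 0.526 over 13 alternatives), so the call for LATS1 rests on that library. LATS2, itself a YAP target, stood at 46.1, 42.8 and 44.2 CPM in siCTRL and at 82.0, 99.4 and 83.5 CPM in siRNA-1. Every siRNA-1 library lay far above every control, with siRNA-1 2 the highest. LATS2 rose 1.99-fold (log2 fold change 0.99, SE 0.081, adjusted p = 7.89e-07, edgeR), and 2.07% of all genes tested rose as much or more. The ratio of LATS2 to LATS1 per kilobase was 1.92 ± 0.241 in siCTRL and 3.47 ± 0.205 in siRNA-1 (SD, n = 3 per group; exact permutation p = 0.1, the smallest possible).

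In a list of 24 kinase cassette and upstream genes, including LATS1 and LATS2, there were 10 rises, 6 falls and 8 genes that did not pass, and the median log2 fold change was 0.15. The share called, 66.7%, was close to the 62.5% of all genes tested. The MST kinase genes rose, STK3 from 34.7 ± 1.28 to 50.8 ± 2.73 CPM (1.46-fold) and STK4 from 116 ± 3.07 to 177 ± 10.4 CPM (1.52-fold). The scaffold gene SAV1 did not pass (89.2 ± 9.32 and 93.1 ± 3.66 CPM, log2 fold change 0.06 with a 95% interval of -0.10 to 0.23). NF2 did not pass either, at 13.8 ± 1.41 and 15.7 ± 0.374 CPM (0.18, interval -0.05 to 0.41). The MOB1 cofactor genes split: MOB1A rose 1.25-fold, from 188 ± 7.54 to 235 ± 3.48 CPM, and MOB1B fell 2.44-fold, from 51.5 ± 5.58 to 21.0 ± 1.91 CPM (adjusted p = 4.2e-07, edgeR).

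RASSF1, whose longer product can activate the MST kinases, rose 3.45-fold from 31.9 ± 0.715 to 110 ± 2.07 CPM (adjusted p = 1.05e-09, edgeR). Gene counts do not separate its transcript forms. The WWC genes, which encode KIBRA and its relatives, scaffolds that promote LATS activity, split as well: WWC1 (1.71-fold) and WWC3 (2.18-fold) rose and WWC2 fell 2.03-fold, from 84.3 ± 6.05 to 41.6 ± 1.37 CPM. FRMD6, an upstream FERM protein gene, fell 1.43-fold, and STK25 fell 1.34-fold. At several steps, then, paralogs in the same role were called in opposite directions, while STK3 and STK4 and all TEAD genes rose together. Over all genes tested 31.5% were called higher and 31.0% lower, and whether such splits were more frequent here was not tested.

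**Figure D3:**
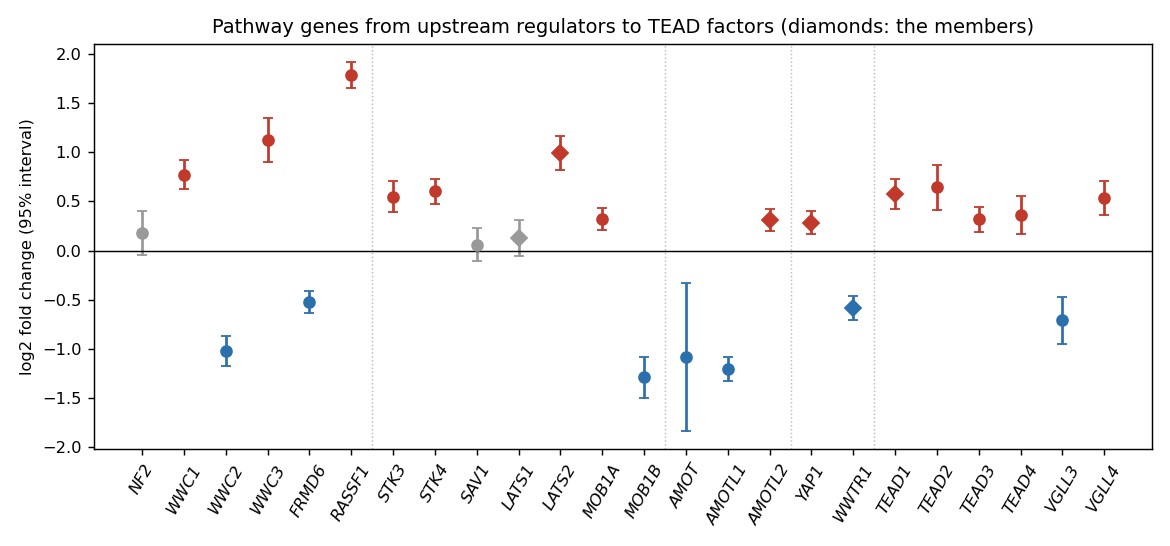
Log2 fold change of siRNA-1 against siCTRL (vertical axis, bars 95% interval) for pathway genes ordered from upstream regulators through kinases, angiomotins and coactivators to TEAD and VGLL genes; red rose, blue fell, grey did not pass. The 4 TEAD genes are all above 0, whereas MOB1A and MOB1B, WWC2 and the other WWC genes, and YAP1 and WWTR1 lie on opposite sides.

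AJUBA encodes a LIM protein that binds and restrains LATS kinases. It stood at 324, 341 and 310 CPM in siCTRL and at 241, 241 and 242 CPM in siRNA-1, all below the controls. AJUBA fell 1.35-fold (log2 fold change -0.43, SE 0.053, adjusted p = 2.15e-05, edgeR). Related LIM protein genes rose, LIMD1 1.27-fold from 102 ± 4.07 to 129 ± 5.98 CPM and WTIP 1.75-fold from 22.0 ± 1.39 to 38.6 ± 1.11 CPM. The striatin genes, which encode subunits of a phosphatase complex that inactivates MST kinases, split: STRN4 rose 1.56-fold, while STRN3 (1.65-fold) and STRN (1.34-fold) fell. SLMAP, an adaptor of that complex, fell 1.31-fold, as did SIPA1L1 (1.36-fold), and MARK4 rose 1.36-fold. In this list of inhibitors of the cascade 6 of 14 tested rose and 5 fell (78.6% called, against 62.5% of all genes), and the median log2 fold change was 0.02. RASSF6 had 24 counts in all and was not tested.

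AMOTL2 encodes an angiomotin, a scaffold that binds YAP and TAZ and keeps them out of the nucleus, and it is itself a target of YAP. Its level was 155, 148 and 153 CPM in siCTRL and 186, 196 and 185 CPM in siRNA-1. AMOTL2 rose 1.24-fold, with all siRNA-1 libraries above all controls (log2 fold change 0.31, SE 0.053, adjusted p = 0.000273, edgeR). Its relative AMOTL1 fell 2.31-fold, from 197 ± 6.32 to 85.5 ± 2.72 CPM (adjusted p = 8.41e-09, edgeR). Among the 14-3-3 genes, whose products hold phosphorylated YAP in the cytoplasm, YWHAZ fell 2.06-fold from 1687 ± 103 to 819 ± 23.2 CPM and YWHAQ fell 1.53-fold, whereas YWHAG rose 1.40-fold. Genes for the degradation of YAP and TAZ rose: the kinase gene CSNK1D (1.42-fold) and the ubiquitin ligase adaptor genes BTRC (1.68-fold, from 49.7 ± 1.50 to 83.3 ± 1.17 CPM) and FBXW11 (1.48-fold). PRKCI, a polarity kinase gene, fell 1.77-fold. Of the 18 genes of YAP binding and turnover, 9 rose and 6 fell (83.3% called, against 62.5% of all genes), and the median log2 fold change was 0.15.

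The largest changes of the 10 genes were falls of the targets CCN1, CCN2 and ANKRD1. CCN1 and CCN2 (also known as CYR61 and CTGF) encode secreted matricellular proteins, and ANKRD1 encodes an ankyrin repeat protein that also acts in the nucleus. CCN1 stood at 1231, 1014 and 1197 CPM in siCTRL and at 499, 534 and 521 CPM in siRNA-1, and fell 2.21-fold (log2 fold change -1.15, SE 0.071, adjusted p = 9.11e-08, edgeR). CCN2 went from 354, 286 and 344 CPM to 82.5, 87.4 and 88.0 CPM, and fell 3.82-fold (log2 fold change -1.93, SE 0.079, adjusted p = 3.84e-09, edgeR). ANKRD1 went from 661, 436 and 679 CPM to 178, 172 and 183 CPM, and fell 3.33-fold (log2 fold change -1.74, SE 0.133, adjusted p = 4.81e-07, edgeR). In each of the 3 genes all siRNA-1 libraries lay far below all controls. Among all genes tested, 1.41% fell as much as CCN2 or more, 2.07% as much as ANKRD1 and 6.33% as much as CCN1.

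**Figure D4:**
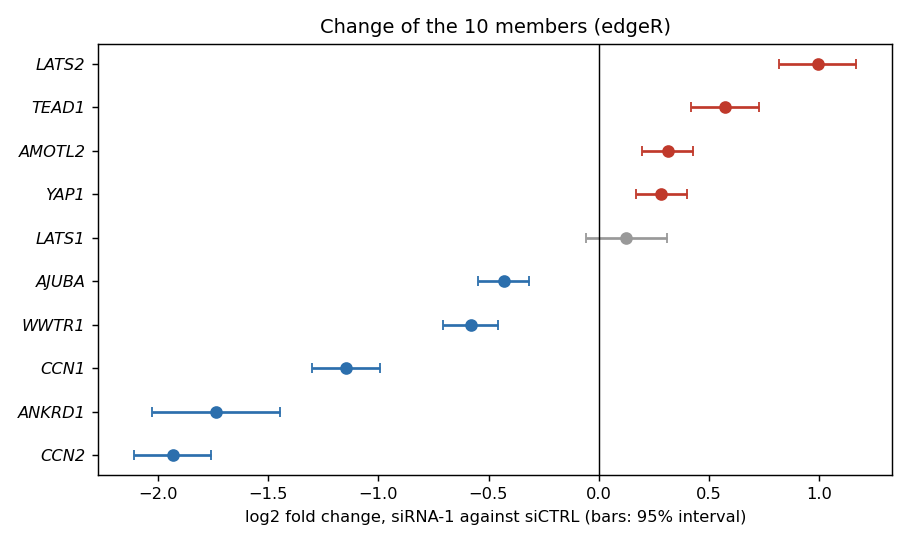
Log2 fold change of siRNA-1 against siCTRL for the 10 genes (horizontal axis, bars 95% interval), ordered by value; red rose, blue fell, grey did not pass. CCN2, ANKRD1 and CCN1 lie lowest and LATS2 highest, at -1.93, -1.74, -1.15 and 0.99.

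The lowest control at all 3 of these targets was siCTRL 2. Its log2 difference from the mean of the other controls was -0.26 at CCN1, -0.29 at CCN2 and -0.62 at ANKRD1. At ANKRD1, 1.79% of all genes tested were as low or lower in siCTRL 2. TEAD1 (0.26) and LATS1 (0.24) were higher there, and the other 5 members differed by at most 0.11 in size. The target list as a whole did not share this shift: its 29 genes beyond the members had a median log2 difference of 0.00 in siCTRL 2. Of the 29, 10 were lowest there (34.5%) and 11 highest (37.9%), against 41.0% and 41.2% of all genes tested. The coefficient of variation of ANKRD1 was 22.9% in siCTRL and 2.95% in siRNA-1. Leaving out any library kept all 3 falls called: over the alternatives the log2 fold change spanned -1.24 to -1.11 for CCN1, -2.04 to -1.89 for CCN2 and -1.93 to -1.63 for ANKRD1.

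The ratio of CCN1 to CCN2 per kilobase was steady among replicates, siCTRL 2 included. It was 3.31, 3.38 and 3.32 in siCTRL and 5.76, 5.83 and 5.64 in siRNA-1, a 1.72-fold shift that reflects the deeper fall of CCN2 (exact permutation p = 0.1, the smallest possible). The ratio of CCN2 to AMOTL2, targets that moved in opposite directions, went from 5.51 ± 0.502 to 1.16 ± 0.0459 (SD, n = 3 per group). This was a 4.72-fold shift (exact permutation p = 0.1, again the smallest possible). Since the groups of both genes were apart in opposite directions, that p was fixed in advance and adds no support.

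In a wider list of 35 genes reported as YAP and TAZ targets, which holds 6 of the 10 genes, 22 fell, 9 rose and 4 did not pass, so 88.6% were called (62.5% over all genes, 31.0% lower and 31.5% higher). The median log2 fold change was -0.35, against 0.01 over all genes tested, and 7 fell at least 2-fold while 0 rose as much, against 8.14% and 1.97% of all genes. Beyond the 6 members, 18 of 29 fell and 7 rose (median -0.33), and 4 fell at least 2-fold. The list was chosen with earlier results of these data known, so its lean to falls is a description and no independent test. The receptor kinase gene AXL fell 2.24-fold from 1219 ± 23.3 to 544 ± 21.1 CPM, and the ligand gene TGFB2 fell 2.72-fold from 183 ± 5.08 to 67.2 ± 4.63 CPM. CRIM1, a transmembrane regulator of BMP signalling, fell 1.71-fold. The largest adjusted p among these 3 was 3.49e-07 (edgeR). Targets that rose included BIRC5, the gene of survivin (1.66-fold, from 121 ± 2.25 to 201 ± 5.76 CPM), and FJX1 (1.58-fold), a regulator gene of planar polarity. They also included FSTL1 (1.48-fold) and the kinase gene NUAK2 (1.95-fold, from 7.49 ± 0.364 to 14.6 ± 0.605 CPM). ASAP1, FOXF2, NT5E and DLC1 (named after their values were seen) did not pass, with log2 fold changes of 0.01, -0.17, 0.01 and 0.11. Many of these genes also answer to other signals, so the list is not a measure of YAP alone.

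**Figure D5:**
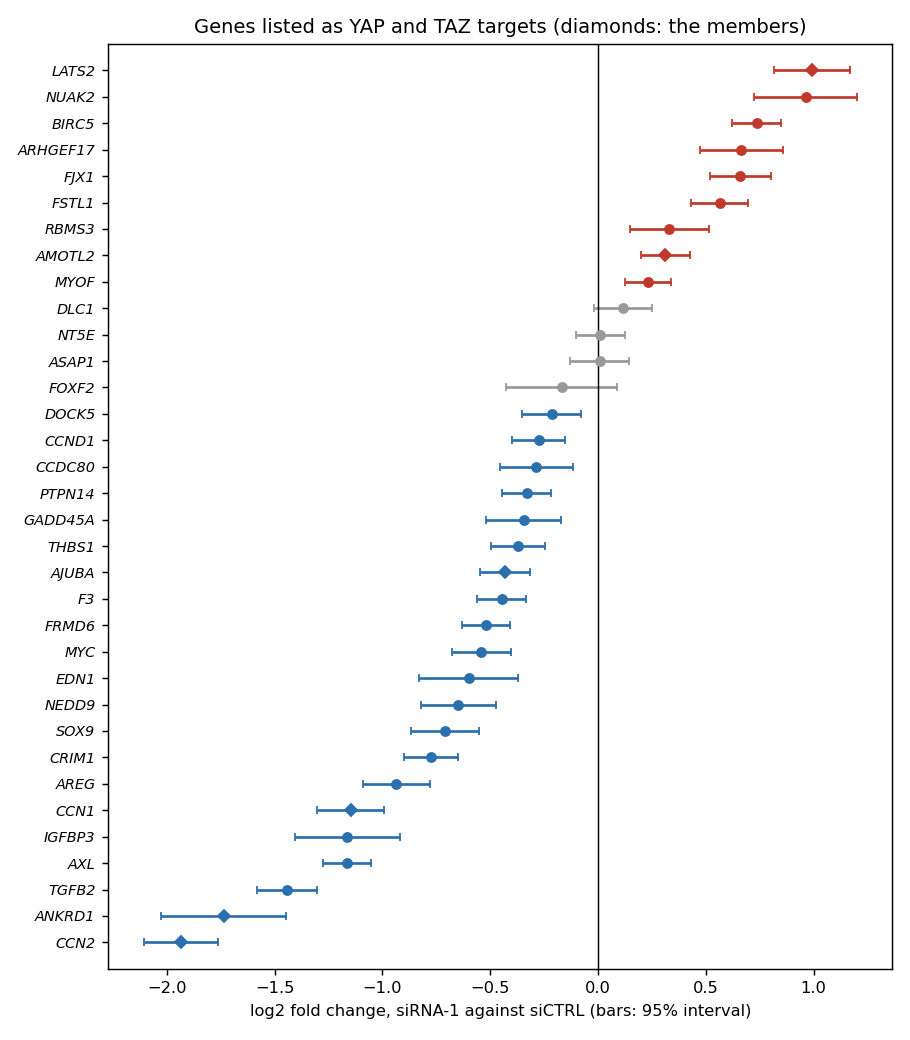
Log2 fold change of siRNA-1 against siCTRL (horizontal axis, bars 95% interval) for 34 of the 35 genes listed as YAP and TAZ targets, with diamonds for members; red rose, blue fell, grey did not pass. The genes plotted run from CCN2 at -1.93 to LATS2 at 0.99, with 21 called lower and 9 called higher.

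Levels per kilobase of exon in siCTRL ran, from the highest down, as CCN1 (467 ± 47.5 CPM per kilobase), ANKRD1 (299 ± 68.6), CCN2 (140 ± 15.7), AJUBA (54.4 ± 2.59) and YAP1 (47.1 ± 1.92). The order went on with TEAD1 (27.0 ± 2.94), AMOTL2 (25.4 ± 0.571), WWTR1 (14.8 ± 0.588), LATS2 (7.96 ± 0.300) and LATS1 (4.18 ± 0.414). TEAD1 and AMOTL2 overlapped, and no other neighbours in this order did. In siRNA-1 CCN2 stood sixth, at 36.7 ± 1.28, below YAP1 (57.4 ± 1.68), AJUBA (40.3 ± 0.0648) and TEAD1 (40.1 ± 0.501). AJUBA and TEAD1 overlapped there, and LATS2 (15.8 ± 1.73) stood above WWTR1 (9.91 ± 0.282). The exon lengths behind these levels are those of all annotated exons together, so a gene with unused exons has its level understated.

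By likeness of profile, measured as Euclidean distance between centred log2 CPM values over the 6 libraries among 11475 genes, the genes nearest to CCN1 were CHKA (0.07), ANKRD40 (0.08) and PKM (0.10). Nearest to CCN2 were STS (0.12), ERLIN2 (0.14) and PTPN22 (0.15), and among the nearest to YAP1 were ZNF592 (0.04) and DCP1A (0.04). Among the 10 genes the closest pair was YAP1 and AMOTL2 (0.13), followed by WWTR1 and AJUBA (0.19). With 2 groups of 3 libraries such distances reflect mainly the size of the group difference.

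The 3' untranslated regions (UTRs) of the 10 genes were searched for the letters GCTCACT. This 7-base sequence had been picked from these same data for its enrichment among falls of 2-fold or more, so its link with falls is how it was chosen. The longest annotated 3' UTR of a gene was used (GENCODE release 29). Of 12275 tested genes with at least 50 bases of it, 19.0% held it, and of 1005 that fell at least 2-fold 36.4% did. Among the 10 genes it was found in 4: WWTR1, CCN2 and AJUBA, which fell, and LATS1, which did not pass. It was in 0 of the 4 that rose, and CCN1 and ANKRD1 fell without it. CCN1 and ANKRD1 had the shortest 3' UTRs of the 10, at 920 and 770 bases, and UTR length was not accounted for. CCN2 is itself among the falls of 2-fold or more from which the letters were picked.

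Among the pathway genes beyond the members 18 of 84 held the letters (21.4%), with falls (MOB1B, WWC2 and YWHAZ) and rises (STK4, WWC3 and WTIP) among them, named after their values were seen. A match is a description of the sequence, and whether any of these transcripts was bound was not tested.

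All 10 are protein-coding genes, with positions from GENCODE release 29 on GRCh38, the build of the deposited data. YAP1 (ENSG00000137693) lies on chromosome 11 from 102110461 to 102233423, and TEAD1 (ENSG00000187079) on the same chromosome from 12674591 to 12944483 (both plus strand). WWTR1 (ENSG00000018408) lies on chromosome 3 from 149517235 to 149736714 and AMOTL2 (ENSG00000114019) on chromosome 3 from 134355874 to 134375479, both on the minus strand. LATS1 (ENSG00000131023) lies on chromosome 6 from 149658153 to 149718256, and CCN2 (ENSG00000118523) on chromosome 6 from 131948176 to 131951373, both minus. LATS2 (ENSG00000150457) lies on chromosome 13 from 20973032 to 21061547, ANKRD1 (ENSG00000148677) on chromosome 10 from 90912096 to 90921276 and AJUBA (ENSG00000129474) on chromosome 14 from 22971174 to 22982642, all minus. CCN1 (ENSG00000142871) is on chromosome 1, plus strand, from 85580761 to 85583962. A gene on the other strand covers part of the exons of YAP1 (9.98% of its exonic bases), WWTR1 (9.45%), CCN2 (8.34%) and LATS1 (4.72%). Whether reads were counted by strand is not stated in the labels or the processing notes, so reads in those stretches cannot be assigned with certainty. Genes on the same strand cover 3.125% of the exonic bases of AMOTL2 (RPL39P5) and 0.836% of those of AJUBA (AL132780.3). Counting by strand would not separate these.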

How the data were processed

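Raw counts per gene (Ensembl identifiers) were deposited for 6 libraries and are labelled there as HTSeq counts. The submitters' processing notes name HTSeq, Trimmomatic, STAR, kallisto and the build hg38, without versions. For annotation release, strand setting and filters nothing is given in the sources used here. Symbols were matched by Ensembl identifier for 20024 of 20042 genes, and the others were Y copies of pseudoautosomal genes. With R 4.3.3 and edgeR 4.0.16, filterByExpr (minimum count 10, minimum total 15) kept 12440 genes, which were scaled by TMM. The groups were compared with the two-sided quasi-likelihood F test, group as the only term, adjusted by Benjamini-Hochberg over all genes tested at 0.05. The SE and the 95% interval of a fold change were derived from its F statistic. A floor of 3 counts was at most 0.233 CPM and covers counting error only.

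Alternatives were DESeq2 1.42.0 (size factors, Wald test), no scaling, no filter, a mean of 100 counts, limma-voom (limma 3.58.1), a replicate block, each library left out and a threshold of 0.01. The members and lists were chosen with earlier results of these data known. Named genes were all members, the 4 called list genes with the smallest adjusted p in each direction (mean log2 CPM at least 1), and the core kinase, TEAD and VGLL genes. A few items that this rule or the lists would name are not reported here.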

Additional observations from a re-analysis of the deposited data

How the results depend on the processing

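Of 130 values of the 10 genes under 13 alternatives each, 129 kept their direction and their side of the threshold. The exception was LATS1, whose log2 fold change of 0.13 became 0.19 and passed without siCTRL replicate 2 (adjusted p = 0.0155). Without that library 10 of the 10 genes changed, 5 upwards, and in every other alternative run 9 did, including the threshold of 0.01. Over all genes tested, 8635 changed without siCTRL replicate 2 and 6206 at the threshold of 0.01, against 7772 in the main run. The call for LATS1 thus came in a run with more calls over all genes, and with slightly more genes tested. Leaving out each library in turn gave LATS1 values from 0.071 to 0.195. For 41 other named genes 532 of 533 values kept direction and side. SAV1, which did not pass, had a log2 fold change of -0.037 in place of 0.06 without siCTRL replicate 2, and leaving out each library gave values up to 0.102. Counts in the pathway lists stayed within 1.5 times. The replicate numbers showed no clear pairing of the samples. Deviations of same-numbered libraries correlated at 0.07, -0.08 and -0.06 over genes, and not every library correlated best with its own number. With so few libraries per group, and siCTRL replicate 2 apart from the other controls, these correlations cannot decide whether the samples were paired. With the replicate block 7535 genes changed in place of 7772, and of the 10 genes 4 rose and 5 fell as before. The member with the fewest counts was LATS1, with 3208 over all libraries, and whether depth limited its call was not tested.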
